A study of Mus musculus with 6 samples.

Results

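The genes described here are the semaphorins, plexins, neuropilins, ephrins and Eph receptors, families of contact and secreted guidance signals and their receptors. They were chosen by name: every probe set assigned to 1 gene whose symbol on the array starts with Sema, Plxn, Efna or Efnb, or is Nrp1, Nrp2 or a numbered Epha or Ephb gene. That gave 124 probe sets of 53 genes, out of 18193 genes named on the array, and each gene was read by its brightest probe set (highest mean over the 6 arrays). One of the 53, Plxna4os1, is an antisense RNA at the plexin A4 gene, so 52 encode members of the families: 7 class 3 semaphorins, 13 other semaphorins, 9 plexins, 2 neuropilins, 5 ephrin-A and 3 ephrin-B ligands, 9 EphA and 4 EphB receptors. RNA of mouse back skin at E15.5, an embryonic stage at which hair follicles are forming, was hybridised to Affymetrix MOE430 2.0 arrays, which read each transcript with sets of short probes. The study compared 3 samples of Fzd6+/– embryos, called control, with 3 samples of Fzd6–/– embryos, called knockout, all of mixed C57BL6/129 background. Both groups thus carry at least 1 mutant Fzd6 allele, and the controls are not wild type. The samples are labelled as biological replicates, but the labels do not say whether each came from 1 embryo, and p-values measure the spread between these samples.

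Semaphorins are guidance cues. Those of class 3 are secreted and act through a neuropilin that binds the ligand and a plexin A that carries the signal, except for Sema3e, which binds plexin D1 directly. Semaphorins of classes 4 to 7 are held at the membrane and bind plexins of the A, B, C and D types without needing a neuropilin. Neuropilins also serve as co-receptors of the vascular growth factor VEGF, and plexin D1 and neuropilins mark growing vessels as well as nerves. Ephrin-A ligands are tethered by a lipid anchor and mostly bind EphA receptor tyrosine kinases, while ephrin-B ligands span the membrane and mostly bind EphB receptors, and signals pass into both cells. In skin these families are known for steering sensory nerves and vessels and for setting boundaries within the epidermis and around hair follicles. Fzd6 encodes Frizzled 6, a receptor of the planar cell polarity system that orients hair follicles.

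Promoter windows of 46 of the 53 genes, 60 windows in all, were read from RefSeq (mouse build GRCm38.p6), each from 250 bases before to 50 bases after a transcript start. The 4 below belong to genes on which the results turn: Sema3d and Efna3, which had the smallest unadjusted p among members with lower and with higher values in the knockout, and Plxnd1 and Nrp2, the receptors with the largest SD over the 6 arrays. Of the 2 windows of Efna3 the outermost is shown. Capitals mark a GC box core (GGGCGG on either strand) or a TCF/LEF core (ATCAAAG on either strand), the sequence bound by the nuclear effectors of Wnt signalling.
Sema3d (chr5:12382916-12383215, plus strand): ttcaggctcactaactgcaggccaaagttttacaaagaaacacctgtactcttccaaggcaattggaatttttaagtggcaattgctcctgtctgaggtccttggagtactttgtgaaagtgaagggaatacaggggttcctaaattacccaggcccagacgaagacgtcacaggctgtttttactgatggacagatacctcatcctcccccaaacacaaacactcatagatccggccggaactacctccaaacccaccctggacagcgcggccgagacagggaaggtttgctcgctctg
Efna3 (chr3:89322890-89323189, minus strand): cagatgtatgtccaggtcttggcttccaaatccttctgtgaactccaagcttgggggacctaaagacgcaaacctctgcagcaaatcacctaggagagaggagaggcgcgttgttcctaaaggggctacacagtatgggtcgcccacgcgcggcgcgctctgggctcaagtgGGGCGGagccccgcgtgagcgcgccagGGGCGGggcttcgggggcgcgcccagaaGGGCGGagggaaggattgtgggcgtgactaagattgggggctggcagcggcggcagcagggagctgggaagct
Plxnd1 (chr6:115994956-115995255, minus strand): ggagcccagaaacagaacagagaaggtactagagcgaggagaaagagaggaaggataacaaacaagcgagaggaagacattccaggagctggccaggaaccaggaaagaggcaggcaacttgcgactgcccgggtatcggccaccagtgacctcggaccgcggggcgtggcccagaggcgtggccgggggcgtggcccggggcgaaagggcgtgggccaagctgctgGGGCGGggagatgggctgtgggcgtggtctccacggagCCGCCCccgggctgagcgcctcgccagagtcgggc
Nrp2 (chr1:62703067-62703366, plus strand): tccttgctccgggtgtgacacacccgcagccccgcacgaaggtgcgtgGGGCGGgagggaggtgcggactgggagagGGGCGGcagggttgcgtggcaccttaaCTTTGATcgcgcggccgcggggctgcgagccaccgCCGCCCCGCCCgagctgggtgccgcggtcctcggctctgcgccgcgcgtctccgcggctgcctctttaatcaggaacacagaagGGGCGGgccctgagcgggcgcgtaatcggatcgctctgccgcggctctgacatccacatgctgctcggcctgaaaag
The Sema3d window holds neither motif, Efna3 holds 3 GC boxes and Plxnd1 2. Nrp2 holds 5 GC boxes and a TCF/LEF core, printed as its reverse complement, and it is the only one of the 46 genes with that core in a window. Over the member windows a GC box was present in 76.7%, against 35.7% of all 32851 windows in the table, with a median GC content of 64.0% against 52.7%. A TCF/LEF core was present in 1.67% of member windows and 3.73% of all, an ETS core (CCGGAAG) in 3.33% and 8.86%, and an AP-1 site (TGANTCA) in 5.0% and 7.81%, and a TATA box (TATAAA) in 1.67% and 13.6%, each on both strands. One pair of GC boxes in the Nrp2 window shares a base, and windows of Sema4a and of Epha7 overlap each other. The class 3 genes Sema3a, Sema3c, Sema3d and Sema3e lie together on chromosome 5, with windows that start at 12382916 (Sema3d), 13396534 (Sema3a), 14025026 (Sema3e) and 17574566 (Sema3c). The ephrin-A genes Efna1, Efna3 and Efna4 lie together on chromosome 3 between 89279596 and 89338278.

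The deposited values were log2 signals with array medians of 5.99 to 6.03, and correlations between arrays of 0.985 to 0.996. Brightness differs between probe sets for reasons other than RNA amount, so levels were compared between arrays and not between genes. As a check of the labels, the brightest Fzd6 probe set read 9.50, 9.51 and 9.11 in the controls and 9.07, 9.01 and 8.71 in the knockouts, a difference of −0.44 (95% interval −0.78 to −0.11, limma unadjusted p = 0.0165, adjusted p = 0.909). All 3 knockouts lay below the controls. A dimmer Fzd6 probe set differed by −0.67 (−0.87 to −0.47) and the other by −0.0097 (−0.21 to 0.19), and whether these probes lie inside the deletion was not determined. Skin markers were present, with 12 of 12 basal epidermis genes, 17 of 18 suprabasal genes and 15 of 15 dermal fibroblast genes above the median probe set. Arrays differed within a genotype. The endothelial list, 18 of 18 genes measured, lay at −0.44 in control 1 and −0.85 in knockout 1 (mean deviation from the 6-array mean, log2) and between 0.23 and 0.36 in the other 4 arrays. Y-linked genes were low in control 2 and knockout 3, 1 array in each group.

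No member passed the test between genotypes. The smallest limma adjusted p over 45037 probe sets was 0.909 among members, and 0% of all probe sets passed at 0.05. At an unadjusted limma p under 0.05 there were 5 of 53 members, or 9.43%, against 5.07% of all genes: Efna3, Sema4a and Sema4d with higher and Sema3d and Sema3e with lower values in the knockout. The 3 higher members compare with 3.17% of all genes and the 2 lower with 1.91%. The split was 6 higher and 2 lower after a further quantile normalisation (15.1% of members against 4.996% of all genes), and 5 higher and 1 lower with each array centred on its median (11.3% against 5.17%). The count was 3, or 5.66%, without control 1, control 2 or knockout 1, where the shares of all genes were 5.07%, 2.88% and 5.65%. Without knockout 2 it was 2, or 3.77% against 4.70% of all genes. With the replicate number as a block, 12 members had an unadjusted p under 0.05, 6 in each direction, which is 22.6% against 12.2% of all genes, and none passed the adjusted threshold (smallest limma adjusted p = 0.335). This block was chosen from correlations between these same arrays, so its intervals and p-values, here and below, give no independent support. The difference had 1 sign within all 3 replicate numbers in 20 members, or 37.7% against 36.7% of all genes. The groups did not overlap in 6 members, 5 higher and 1 lower, or 11.3% of members against 11.3% of all genes (6.99% higher and 4.31% lower), and 0 were lower with centred arrays. With fewer arrays more genes do not overlap: there were 14 such members, or 26.4%, without control 3 or without knockout 3, against 20.3% and 18.1% of all genes. Without knockout 1 there were 10, or 18.9% against 22.7%. Over the 53 genes 21 values were higher, or 39.6% against 52.4% of all genes, and 32 were lower. The median difference was −0.055 against 0.0070 over all genes. The sign of that median changed without knockout 1 (0.076), without control 2 (0.035) and with array weights (0.00052).

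**Figure D1:**
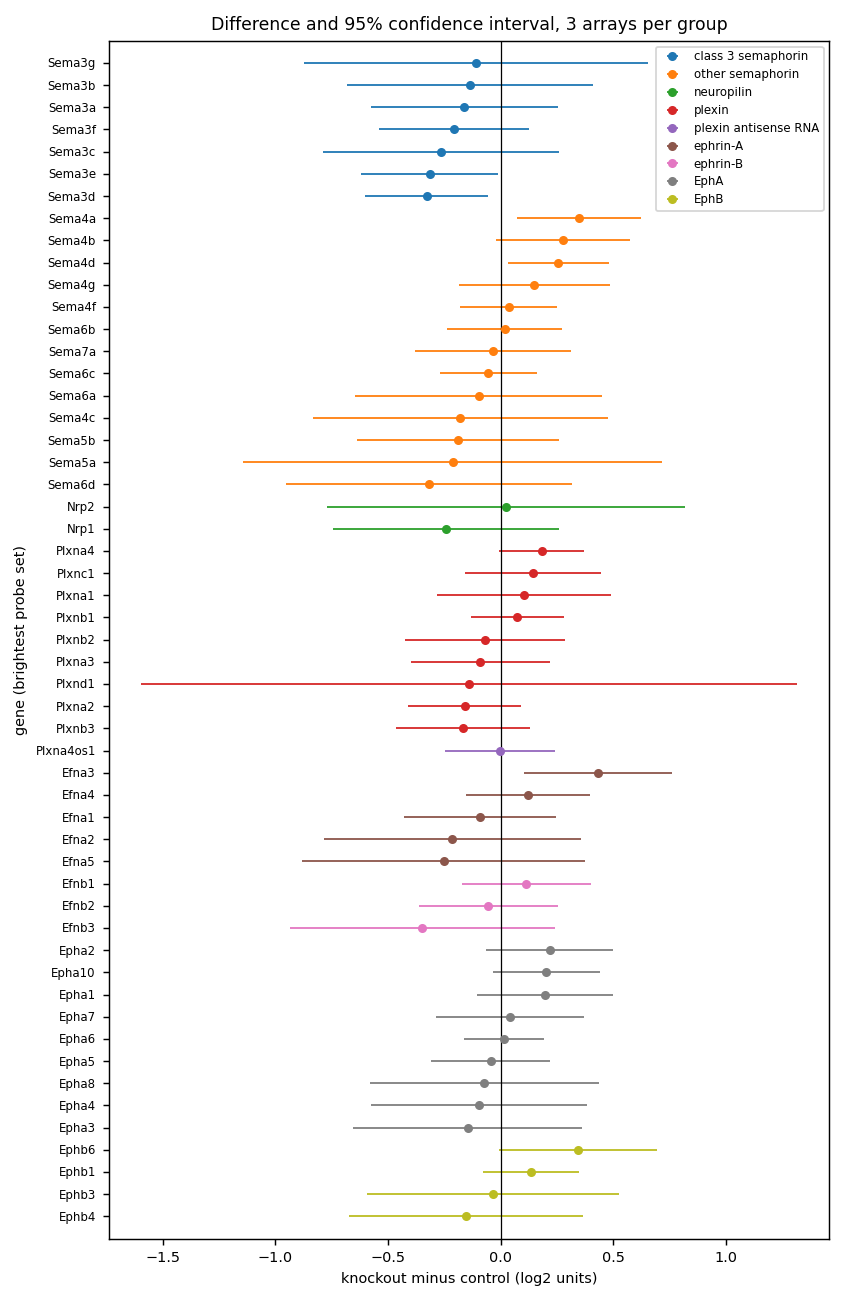
Knockout minus control in log2 units on the horizontal axis for the brightest probe set of each of the 53 genes, with points for the difference of the group means, bars for 95% confidence intervals of the limma fit (3 arrays per group) and colours for the role. The intervals of Efna3, Sema4a and Sema4d lie above 0 and those of Sema3d and Sema3e below it, the 7 class 3 semaphorins lie left of 0, and Plxnd1 has the widest interval (−1.60 to 1.31).

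The secreted class 3 semaphorins had lower values in the knockout in 7 of 7 genes, with a median of −0.21 and a range of −0.33 to −0.11. Over all genes 52.4% had higher values. None of the 7 passed the adjusted test. Over the other settings their median ran from −0.33 without control 3 to −0.13 without both replicate 1 arrays. Lower values were also the more common in some marker lists of cell types. Higher values in the knockout were found in 3 of 18 endothelial genes, 4 of 15 dermal fibroblast genes, 4 of 17 axon and neuron genes and 4 of 16 skeletal muscle genes. The median differences of these lists were −0.11, −0.071, −0.067 and −0.15. Other lists did not lean that way, with higher values in 5 of 10 Schwann cell genes, 10 of 12 basal and 17 of 18 suprabasal epidermis genes. The part of any list in the class 3 values was not tested. Sema3d, a cue for sensory axons and vessels, read 9.13, 9.28 and 9.05 in the controls and 8.73, 9.05 and 8.71 in the knockouts. Knockout 2 came within 0.0079 of the lowest control, and the other 2 knockouts lay lower. The means were 9.16 ± 0.12 and 8.83 ± 0.19 (SD, n = 3), a difference of −0.33 (−0.60 to −0.054, SE 0.12, limma unadjusted p = 0.025, adjusted p = 0.909), and −0.27 without control 2 (unadjusted p = 0.0854 in limma). Its other probe set, at a mean of 4.83, gave −0.042 (−0.25 to 0.16). Sema3e, the ligand of plexin D1, read 5.77, 5.76 and 5.57 in the controls against 5.64, 5.19 and 5.33 in the knockouts, where knockout 1 lay above control 3. It differed by −0.31 (−0.62 to −0.010, limma unadjusted p = 0.0443), and its dimmer probe sets by −0.19, −0.21 and −0.075. All 4 of its probe sets lay below the array medians, where RMA pulls differences toward 0.

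The remaining secreted members had intervals that included 0. Sema3c, which acts in vessel and outflow tract patterning, read 9.90, 9.20 and 9.19 in the controls and 9.37, 9.29 and 8.83 in the knockouts, so that control 1 stood apart from the rest (−0.26, −0.79 to 0.26). Sema3f, a ligand of neuropilin 2, read 9.74, 9.76 and 9.69 in the controls and 9.19, 9.64 and 9.73 in the knockouts. Its difference of −0.21 (−0.54 to 0.12) came from a probe set of a type that can also bind other transcripts, and its next brightest gave 0.010 (−0.61 to 0.63). Sema3a, the classical repellent of sensory axons, differed by −0.16 (−0.58 to 0.25), Sema3b by −0.14 (−0.68 to 0.41) and Sema3g by −0.11 (−0.87 to 0.65). The dimmer probe sets of Sema3b gave 0.089 and 0.085, against the sign of its brightest. Those of Sema3a gave −0.29 and −0.0059, and that of Sema3c −0.031. With quantile normalised or centred arrays all 7 differences stayed below 0. It was 6 of 7 with array weights, without control 2, without both replicate 1 arrays, with the mean of all probe sets of a gene and with the brightest probe set free of shared types, and 5 of 7 without knockout 1.

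Class 4 semaphorins, membrane proteins that bind plexin B receptors, included Sema4a and Sema4d, which had an unadjusted p under 0.05. Sema4a read 8.49, 8.72 and 8.90 in the controls and 9.06, 9.14 and 8.96 in the knockouts, with every knockout above the highest control. Its brightest probe set, like that of Sema3f, is of a type that can also bind other transcripts. The means were 8.70 ± 0.20 and 9.05 ± 0.092 (SD, n = 3), a difference of 0.35 (0.073 to 0.63, SE 0.12, limma unadjusted p = 0.0198, adjusted p = 0.909), and its other probe set, at a like level, gave 0.33 (0.060 to 0.60) with the groups also apart. The brightest one gave 0.24 without control 1 (limma unadjusted p = 0.0569). Sema4d, which signals through plexin B1, read 7.32, 7.56 and 7.37 in the controls and 7.69, 7.75 and 7.57 in the knockouts. Here the groups were 0.014 apart and the difference was 0.26 (0.031 to 0.48, limma unadjusted p = 0.0305), with 0.14 and −0.031 in dimmer probe sets. Sema4b gave 7.65, 7.995 and 7.75 in the controls and 8.20, 8.15 and 7.88 in the knockouts, with knockout 3 below control 2. It differed by 0.28 (−0.019 to 0.58, and 0.036 to 0.52 with the replicate block, limma unadjusted p = 0.0298), and its dimmer probe set by −0.017. The others of the class differed by 0.15 (Sema4g, −0.19 to 0.49), 0.036 (Sema4f, −0.18 to 0.25) and −0.18 (Sema4c, −0.83 to 0.48). A dim probe set of Sema4f, also of the type that can bind other transcripts and at a mean of 3.96, gave −0.43 (−0.72 to −0.13) against the sign of the bright one.

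Suprabasal epidermis genes had higher values in the knockout in 17 of 18 measured, where 52.4% of all genes did. Of these, 8 had an unadjusted limma p under 0.05, where 3.17% of all genes were higher at that p. None passed the adjusted threshold (smallest adjusted p = 0.909). This list, like the others, was chosen with earlier results of these data known, so these counts give no independent support. The list, of 19 genes, lay at −0.22, −0.27 and −0.15 in the controls and 0.63, 0.065 and −0.052 in the knockouts, and its summed level at 16.3 to 16.5 and 16.6 to 16.9 (log2). Basal epidermis genes had higher values in 10 of 12, with a median of 0.18, and lay at 0.065, 0.082 and −0.37 in the controls and 0.27, 0.21 and −0.25 in the knockouts, higher in each numbered pair but overlapping. The part of these lists in the differences of Sema4a, Sema4b, Sema4d, Efna3, Epha1 and Epha2 was not tested. In bulk skin, a change in the number of cells of a type and a change in RNA per cell cannot be told apart.

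The remaining membrane semaphorins varied more between arrays of 1 genotype than between genotypes. Sema6d, a ligand of plexin A1, read 9.58, 10.37 and 9.93 in the controls and 9.13, 10.06 and 9.74 in the knockouts, with replicate 1 lowest in each. Its difference was −0.32 (−0.95 to 0.32), with an interval of −0.51 to −0.12 under the replicate block (unadjusted p = 0.00593 in the blocked limma fit, adjusted p = 0.34), and within numbers 1 to 3 it was −0.45, −0.32 and −0.19. It was −0.059 without knockout 1, −0.11 without control 2 and −0.53 without knockout 2. Its dim probe sets gave −0.14, −0.22 (−0.40 to −0.038, groups apart) and 0.054. Sema5a, a thrombospondin-repeat semaphorin, read 7.85, 9.05 and 8.61 against 7.48, 8.64 and 8.75 (−0.21, −1.14 to 0.72), and its relative Sema5b differed by −0.19 (−0.64 to 0.26). Differences of Sema6a (−0.097), Sema6b (0.019), Sema6c (−0.055) and the lipid-anchored Sema7a (−0.034) were smaller than their intervals, which all included 0.

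**Figure D2:**
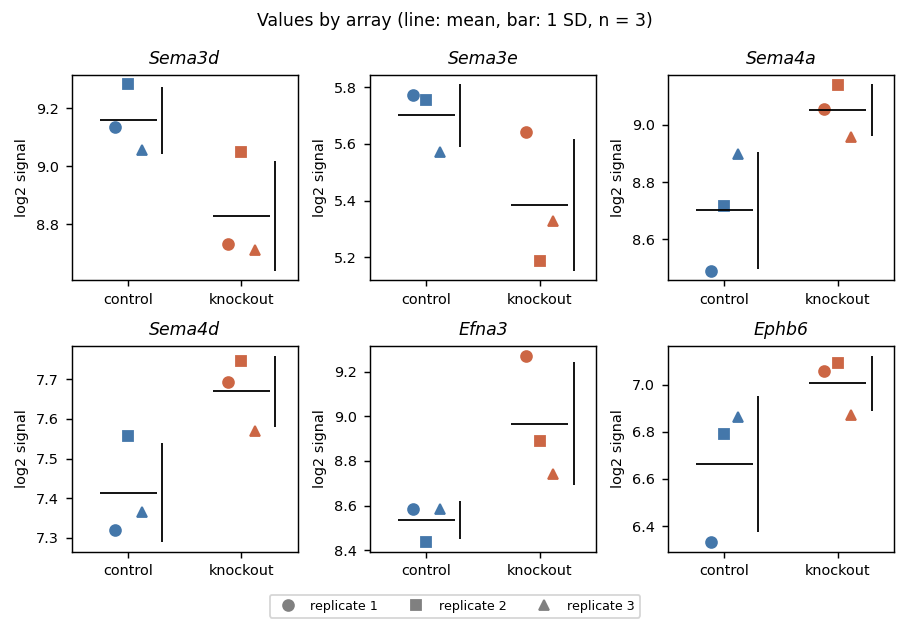
Log2 signal of the brightest probe set of 6 genes in each array, with a marker per replicate number, a line at the group mean and a bar of 1 SD (n = 3); vertical scales differ between panels and do not start at 0. Sema3d and Sema3e lie lower and Sema4a, Sema4d, Efna3 and Ephb6 higher in the knockout, with gaps between the groups of 0.0079 in Sema3d and 0.0082 in Ephb6 and an overlap in Sema3e.

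Neuropilins, the ligand-binding co-receptors, did not differ beyond their spread. Nrp1 read 10.76, 11.33 and 11.001 in the controls and 10.34, 11.001 and 11.02 in the knockouts. Replicate 1 was the lowest of each group, and the difference of −0.24 (−0.75 to 0.26) lay within the spread. All 4 Nrp1 probe sets gave negative values, from −0.37 to −0.24, and the blocked fit gave an interval of −0.48 to −0.0055 (limma unadjusted p = 0.0461, adjusted p = 0.407). The difference of the brightest was −0.021 without knockout 1, −0.093 without control 2 and −0.38 without control 1. Nrp2 read 8.39, 9.15 and 9.02 in the controls and 8.10, 9.26 and 9.28 in the knockouts, a difference of 0.023 (−0.77 to 0.82) whose sign turned without control 1 (−0.21), knockout 2 (−0.17) or knockout 3 (−0.18).

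Among the plexins, the signalling receptors of semaphorins, 4 of 9 values were higher and 5 lower, with a median of −0.069. This median had no stable sign: it was 0.11 without control 2 or without knockout 1, 0.024 without control 3, 0.013 without both replicate 1 arrays and 0.066 with array weights, but −0.15 without control 1. Plxna4, a receptor that works with neuropilins in sensory neurons, read 5.95, 6.11 and 6.10 in the controls and 6.26, 6.20 and 6.25 in the knockouts. The knockouts lay close together and 0.092 above the highest control, and the difference was 0.18 (−0.0059 to 0.37, limma unadjusted p = 0.0558), but its other probe set gave −0.027 (−0.31 to 0.25) and the antisense RNA Plxna4os1 −0.0039. Plxna2 differed by −0.16 (−0.41 to 0.092), with −0.15, −0.13 and −0.21 in its other probe sets, so all 4 had 1 sign. Plxnb2, a receptor of class 4 semaphorins, read 9.79, 10.26 and 9.84 in the controls and 9.74, 10.10 and 9.84 in the knockouts, nearly the same values by number (−0.069, −0.43 to 0.29). Plxnd1, the vascular receptor of Sema3e, read 7.52, 9.11 and 9.004 in the controls and 7.07, 9.13 and 9.02 in the knockouts. Replicate 1 lay over 1 log2 unit below the others in both genotypes, and the difference of −0.14 had an interval of −1.60 to 1.31. It was 0.013 without both replicate 1 arrays, 0.53 without knockout 1 and −0.65 without control 1. Plxna1 (0.10), Plxna3 (−0.090), Plxnb1 (0.074), Plxnb3 (−0.17) and Plxnc1 (0.14) had intervals that included 0.

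Ephrin-A3 had the largest positive difference of the 53 genes. Efna3 read 8.59, 8.44 and 8.58 in the controls and 9.27, 8.89 and 8.74 in the knockouts, with the lowest knockout 0.16 above the highest control. The controls lay close together, and knockout 1, where the suprabasal list was also highest, lay above the other knockouts. The means were 8.54 ± 0.085 and 8.97 ± 0.27 (SD, n = 3), a difference of 0.43 (0.10 to 0.76, SE 0.14, limma unadjusted p = 0.0166, adjusted p = 0.909), and 0.28 without knockout 1. Its dimmer probe set read 6.38, 6.38 and 6.71 in the controls and 7.13, 6.64 and 6.45 in the knockouts, which overlapped (0.25, −0.18 to 0.68). Its neighbour Efna4 read 8.85, 8.74 and 8.48 in the controls and 8.87, 8.90 and 8.67 in the knockouts, which overlapped (0.12, −0.16 to 0.40). The third gene there, Efna1, differed by −0.092 (−0.43 to 0.25). Efna5, a ligand that sorts EphA-bearing axons, read 8.96, 9.71 and 9.31 in the controls and 8.53, 9.45 and 9.24 in the knockouts, lower in each numbered pair but overlapping between groups (−0.25, −0.88 to 0.37, and −0.47 to −0.041 with the replicate block, limma unadjusted p = 0.0258, adjusted p = 0.368). Without knockout 1 it was 0.017, and its dimmer probe set gave 0.087 (−0.14 to 0.31). Differences of 1 sign in all numbered pairs were found in 37.7% of members and 36.7% of all genes. Efna2 differed by −0.21 (−0.79 to 0.36).

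The ephrin-B ligands gave 1 higher and 2 lower values. Efnb2, the arterial ligand of EphB4 and a ligand of the dermis, read 9.61, 10.02 and 9.90 in the controls and 9.63, 9.95 and 9.79 in the knockouts. The knockouts lay within the control range (−0.054, −0.36 to 0.26). Efnb1, the X-linked ligand, read 7.98, 8.19 and 8.02 in the controls and 7.94, 8.34 and 8.25 in the knockouts, a difference of 0.11 (−0.17 to 0.40), and its 3 probe sets had 1 sign. Efnb3 read 7.80, 8.24 and 7.94 against 7.05, 8.004 and 7.89, with knockout 1 far below the rest, and had the largest negative difference, −0.35 (−0.94 to 0.24, and −0.66 to −0.036 with the replicate block, limma unadjusted p = 0.0334). That difference was −0.047 without knockout 1.

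In the EphA receptors 5 of 9 values were higher and 4 lower, with a median of 0.015. This median was −0.012 after a further quantile normalisation. Epha2, the main EphA receptor of keratinocytes, read 7.45, 7.32 and 7.62 in the controls and 7.86, 7.68 and 7.51 in the knockouts (0.22, −0.064 to 0.50). Epha1, also an epithelial receptor, read 8.33, 8.41 and 8.44 in the controls and 8.83, 8.61 and 8.33 in the knockouts. Knockout 3 equalled the lowest control, and the difference was 0.20 (−0.11 to 0.50). A dimmer Epha1 probe set gave 0.20 (0.010 to 0.39) with the groups apart, and the dimmest 0.12. Epha10, a receptor without kinase activity, read 6.35, 6.18 and 6.17 in the controls and 6.59, 6.40 and 6.31 in the knockouts, so that only control 1 reached the knockout range (0.20, −0.034 to 0.44, and 0.031 to 0.38 with the replicate block, limma unadjusted p = 0.0267). Epha3, a receptor of mesenchyme, read 8.64, 8.64 and 8.46 against 8.79, 7.89 and 8.62, where knockout 2 alone lay low (−0.15, −0.65 to 0.36, and 0.12 without knockout 2). Epha4, which also binds ephrin-B ligands, differed by −0.095 (−0.57 to 0.38), and Epha5, Epha6, Epha7 and Epha8, whose brightest probe sets were below the median, by −0.073 to 0.043.

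EphB receptors gave 2 higher and 2 lower values. Ephb6, which lacks kinase activity, read 6.33, 6.79 and 6.86 in the controls and 7.06, 7.09 and 6.87 in the knockouts. Control 1 lay far below the rest, the groups were 0.0082 apart, and the difference was 0.34 (−0.0048 to 0.69, limma unadjusted p = 0.0525), or 0.18 without control 1. With the replicate block its interval was 0.035 to 0.65 (limma unadjusted p = 0.0339). Ephb1 read 5.44, 5.42 and 5.54 against 5.53, 5.74 and 5.53, in which only knockout 2 lay outside the control range (0.14, −0.077 to 0.35). Ephb3 read 8.79, 9.54 and 9.42 in the controls and 8.80, 9.48 and 9.37 in the knockouts, nearly equal by number (−0.033, −0.59 to 0.53). Ephb4, the venous receptor of ephrin-B2, read 7.97, 8.59 and 8.35 against 7.73, 8.48 and 8.23 (−0.15, −0.67 to 0.36).

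**Figure D3:**
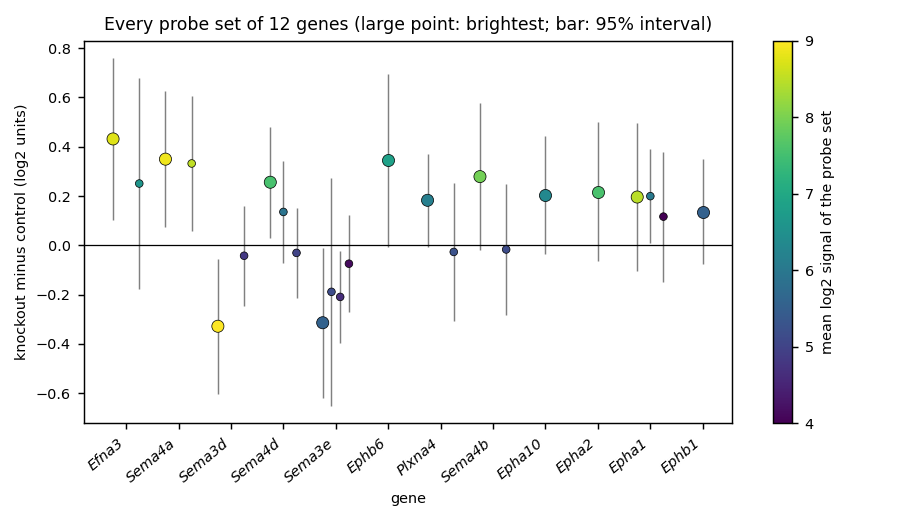
Knockout minus control (log2 units, vertical axis) for every probe set of the 12 genes with the smallest unadjusted p, with 95% limma intervals, a large point for the brightest probe set and colour for its mean log2 signal. Both probe sets of Sema4a lie above 0, while the dimmer probe sets of Sema3d, Plxna4 and Sema4b lie near 0 at −0.042, −0.027 and −0.017.

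Of the 36 members with more than 1 probe set, 18 had differences of 1 sign in all of them. Over the 124 probe sets, 11 had an unadjusted limma p under 0.05, 5 higher and 6 lower, where 5.21% of all probe sets did.

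The families varied between arrays more than genes in general. Their median SD over the 6 arrays was 0.22 against 0.14 over all genes, and 0.23 against 0.16 for those above the median level. In 29 of 53 members, 54.7%, the array with replicate number 1 was the lowest in both genotypes, against 23.2% of all genes. It was the highest in both in 6 members, or 11.3% against 25.2%. Among genes above the median level the first share was 58.7% of members and 28.8% of all. Both neuropilins, 3 of 3 ephrin-B ligands, 9 of 13 membrane semaphorins and 6 of 9 plexins had this pattern, but 1 of 9 EphA receptors and 2 of 7 class 3 semaphorins. The mean of the replicate 1 arrays lay below that of the other 4 by −1.77 in Plxnd1 (7.29 and 9.07), −1.09 in Sema5a (7.67 and 8.76), −0.93 in Nrp2 (8.25 and 9.18) and −0.83 in Sema3g (5.98 and 6.81). Sema3c (0.51), Epha4 (0.41) and Sema3a (0.37) lay on the other side. The endothelial genes Cdh5 and Kdr followed Plxnd1, with Cdh5 at 7.02, 8.30 and 8.08 in the controls and 6.38, 8.19 and 8.23 in the knockouts. Dermal fibroblast genes, 15 of 16 measured, were also low there, at −0.31 in control 1 and −0.59 in knockout 1 against 0.17 to 0.27 elsewhere. Summed levels of the endothelial list ran from 12.01 to 12.72 in the controls and 11.60 to 12.77 in the knockouts. The part of these lists in the members' spread was not tested, and the labels do not say what a replicate number stands for.

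**Figure D4:**
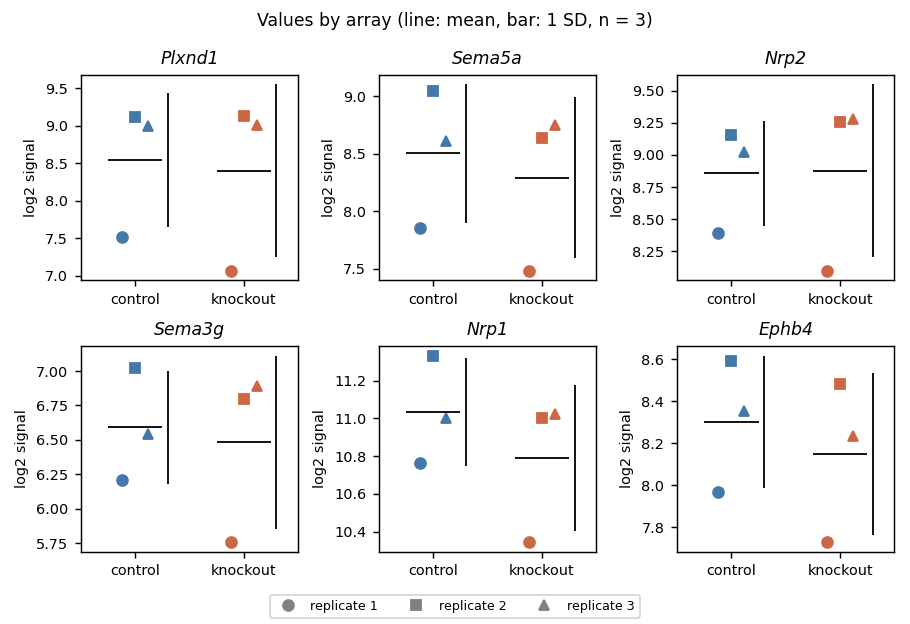
Log2 signal by array of 6 genes with replicate number 1 lowest in both genotypes, with a marker per replicate number, a line at the group mean and a bar of 1 SD (n = 3); vertical scales differ and do not start at 0. In Plxnd1 the replicate 1 arrays lie at 7.52 and 7.07 and the other 4 between 9.004 and 9.13.

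**Figure D5:**
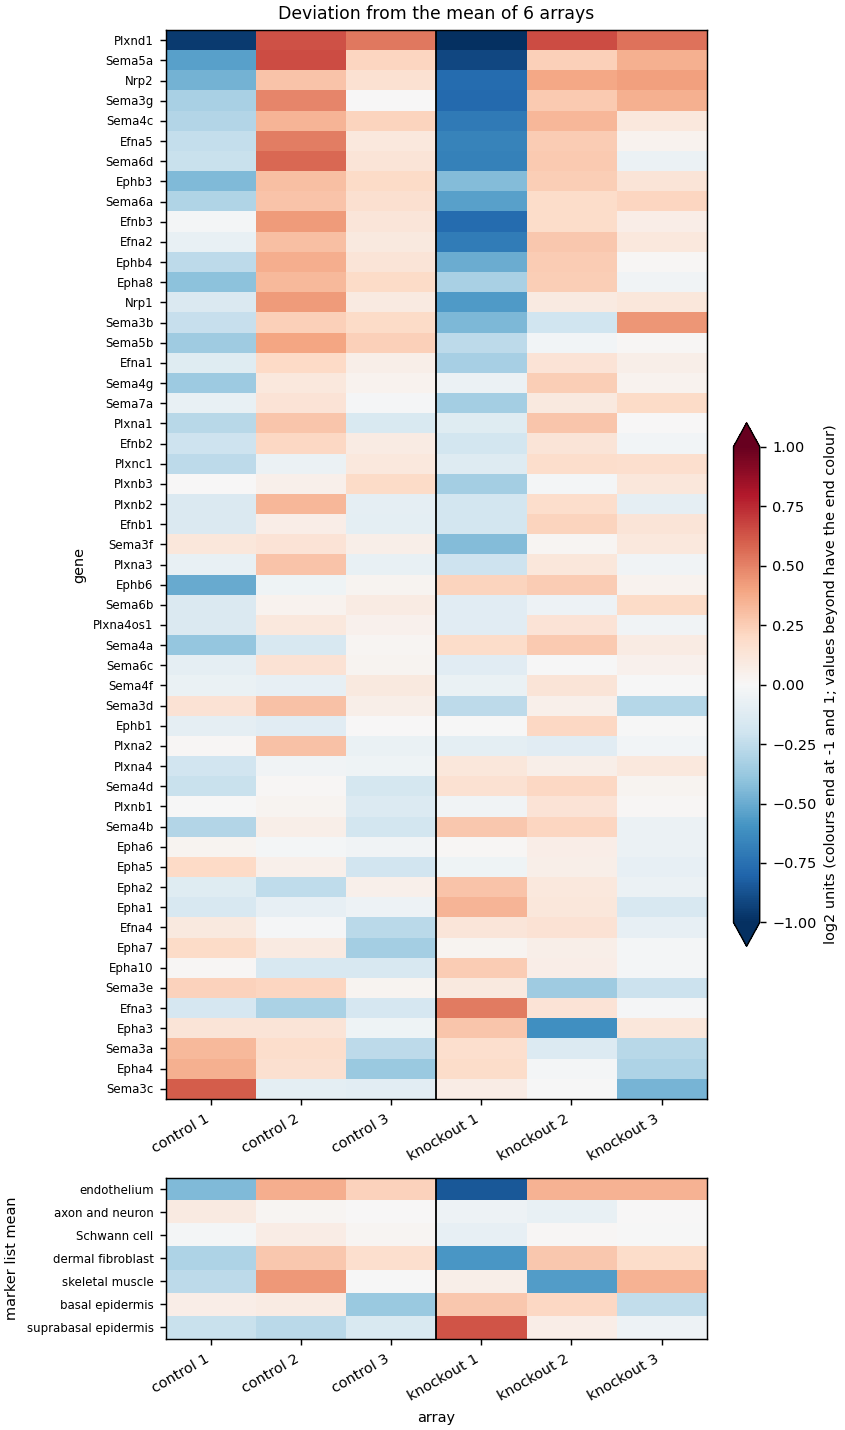
Deviation of each array (columns) from the mean of the 6 arrays in log2 units, red above and blue below, for the 53 genes (upper rows, ordered by the mean of the replicate 1 arrays minus the mean of the other 4) and for 7 marker lists (lower rows). The top rows, led by Plxnd1 (−1.77), and the endothelial list are blue in control 1 (−0.44) and knockout 1 (−0.85), and the suprabasal list is reddest in knockout 1 (0.63).

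Markers of nerve and glia, whose fibres these families guide, were read from 2 lists. The axon and neuron list had 17 of 18 genes measured, 6 of them above the median level, and 4 of the 17 had higher values in the knockout. It lay between 0.0065 and 0.093 in the controls and between −0.077 and 0.0064 in the knockouts, so that the groups met without overlapping. Its summed level was 10.83 to 11.03 and 10.78 to 10.90, and 1 gene, the neurofilament Nefl, had an unadjusted limma p under 0.05 (−0.56, −0.96 to −0.16, adjusted p = 0.909). The Nefl probe set, at a mean of 4.99, lay below the array medians. The Schwann cell list, 10 of 12 measured, lay between −0.022 and 0.073 and between −0.081 and 0.012, and Egr2, a regulator of myelin genes, was its 1 gene under that p (0.22, 0.0022 to 0.45). Over all genes 5.07% had an unadjusted limma p under 0.05.

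Intracellular partners of the receptors were read from 2 lists. Of 40 semaphorin and plexin effectors, 17 had higher and 23 lower values, with a median of −0.033. None passed the adjusted test. An unadjusted limma p under 0.05 was found in 3, or 7.50%, against 5.07% of all genes. All 3 were lower, as were 1.91% of all genes at that p. Rnd3, a GTP-binding protein that opposes RhoA and binds plexins, read 9.83, 9.87 and 9.86 in the controls and 9.57, 9.53 and 9.53 in the knockouts. The arrays of each group lay close together and the groups apart, and the difference was −0.31 (−0.48 to −0.14, limma unadjusted p = 0.00306, adjusted p = 0.909), with −0.40 (−0.74 to −0.055) in its other probe set. Dpysl3, a collapsin response mediator protein, read 9.69, 9.87 and 9.60 against 9.20, 9.51 and 9.33 (−0.37, −0.64 to −0.11), and its dimmer probe sets gave −0.11 and −0.18. Rap1b, the small GTPase on which plexins act, read 11.89, 11.92 and 12.10 against 11.78, 11.75 and 11.73 (−0.22, −0.42 to −0.018), with −0.35 and −0.044 in its others. Of 33 Eph and ephrin effectors, 14 had higher values, and 1 had an unadjusted limma p under 0.05, where 5.07% of all genes did. It was Chn1, a Rac-inactivating protein that EphA4 uses in axon guidance. Chn1 read 6.98, 7.09 and 7.27 against 6.62, 6.78 and 6.81 (−0.38, −0.62 to −0.14). Its dimmer probe set differed by 0.15 (−0.083 to 0.38). The adaptor Crk (−0.19, −0.41 to 0.028) and the exchange factor Ngef (0.23, −0.043 to 0.51) had the next smallest p.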

How the data were processed

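Total RNA of 6 back skin samples was hybridised to Affymetrix MOE430 2.0 arrays. The authors summarised the probes with RMA, version unstated, per the submitters' processing notes, and the deposited values were read as log2 from their range of 2.39 to 14.8, since no source used here states the log base. RMA gives the arrays nearly the same distribution and shrinks differences of dim probe sets. Detection calls were not made. Of 45101 rows, 64 array controls were left out and dim probe sets were kept. Names came from the platform annotation: 1 symbol for 34945 probe sets, several for 932 and no symbol for 9160, and 53 of 53 member symbols matched RefSeq's gene table (GRCm38.p6).

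Knockout minus control was estimated by limma 3.58.1 (R 4.3.3; lmFit, then eBayes, 2-sided, without covariates, on 4 residual and 3.43 prior degrees of freedom), adjusted by Benjamini-Hochberg over 45037 probe sets, with a threshold of 0.05. The script was tested on simulated data. Members and lists were chosen with earlier results of these data known. Named genes: every member, with array values for the 12 smallest p, the brightest 2 of each role and Fzd6; of each effector list the 3 smallest p. Sema5a, Sema3g, Efnb3, Cdh5, Kdr, Nefl, Egr2 and the Sema4f probe set were singled out after their values were seen.

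The main fit left the arrays unpaired. Only the replicate block took the numbers as pairs, because deviations from the group means correlated positively within numbers 1, 2 and 3 (0.568, 0.359 and 0.124). The pairing comes from the same data that the block then tested. It was not clear for numbers 2 and 3, since control 2 correlated more with knockout 3 (0.422) than with knockout 2. Alternatives were other normalisations, variances, weights, covariates, blocks, probe set choices and arrays left out. Figures used matplotlib 3.10.9 in Python 3.11.15.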

Additional observations from a re-analysis of the deposited data

How the results depend on the processing

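No alternative brought a member past the adjusted threshold. The smallest limma adjusted p of the members ranged from 0.335 with the replicate block to 1.00 without control replicate 2. The count of members at an unadjusted p under 0.05, which was 5, became 8 after a further quantile normalisation (15.1% against 4.996% of all genes), 12 with the replicate block (22.6% against 12.2%) and 2 with the mean of all probe sets of a gene (3.77% against 5.18%), and ranged from 2 (3.77% against 4.70%) to 5 (9.43% against 4.75% or 4.64%) over the settings that left out arrays. The count of members whose groups did not overlap, which was 6, ranged from 6 without knockout 2 (11.3% against 19.8% of all genes) to 14 (26.4% against 20.3% or 18.1%), and was 12 without both replicate 1 arrays (22.6% against 38.4%). The median difference of −0.055 ranged from −0.11 to 0.076 and changed sign without knockout 1, without control 2 and with array weights. Each shift was below the spread of 0.14 between arrays. That spread exceeds the median itself, so it cannot show that the median was stable. Fzd6 stayed lower in all settings (−0.58 to −0.34). Of 414 values of the 26 members given by array, under 16 other settings, 20 had another sign, in 9 members, and none passed the adjusted threshold; the cause was not tested. No member given by array kept an unadjusted p under 0.05 in all settings, and Efna3 did in 15 of 17, Sema4a in 14 and Sema3d in 12. The replicate block changed no adjusted call. With 3 arrays a group and no detection calls, differences in the 7 members below the median level are limited most.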
